A study of Homo sapiens with 8 samples.

Results

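The sites described here are stretches of the T47D genome where 3 ChIP-seq libraries, each made after 60 min of hormone, all had a called peak. The libraries recovered the glucocorticoid receptor (GR) after dexamethasone (Dex) from A1-2 cells, the progesterone receptor (PR) after R5020 from A1-2 cells, and PR after R5020 from MTVL WT cells. Peaks outside chromosomes 1 to 22 and X, or overlapping a peak of the A1-2 input DNA, were dropped, and peaks that overlapped by at least 1 bp were merged. Of the 51444 merged regions, 11528 overlapped all 3 lists (22.4%, 22 to 22.8), and these are called shared sites below. GR was mapped in A1-2 cells alone, so a shared site has PR in both lines and GR in A1-2 cells, and nothing is known here of GR in MTVL cells.

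The established T47D line comes from a human breast cancer, and ChIP-seq sequences the DNA fragments that an antibody recovers together with a protein. A1-2 cells are a T47D line that, per the design text of the series, expresses both receptors, and MTVL WT cells were the control line of the study. All cells, the untreated ones included, were kept in hormone-stripped serum and then starved of serum to hold them in G0/G1. GR was recovered with a mix of the antibodies P-20 and PA1-511A, and PR with the antibody H-190. Dex, a synthetic glucocorticoid, and R5020, a synthetic progestin, were given at 10 nM. Besides the 3 lists that define the sites, A1-2 cells gave GR peaks after R5020 and GR and PR peaks without hormone, and MTVL cells gave PR peaks without hormone. Whether either line is 1 clone is not given in the sources used here.

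GR and PR are steroid receptors, transcription factors that bind DNA as dimers once they hold their hormone. Their DNA-binding domains are closely related, and both recognise the same hormone response element, an inverted repeat of a short half-site. In breast epithelium progestins drive growth and gland development through PR, while glucocorticoids act through GR on metabolism, survival and differentiation.

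With 1 library per condition, differences have no replicate check and carry no p-value. The read depth is unknown, and deeper libraries give longer peak lists. Intervals are 95% intervals over regions or peaks and cover counting error alone. The lists used held 18415 GR Dex peaks, 28262 PR peaks of A1-2 cells and 43070 PR peaks of MTVL cells after R5020. The lists outside the rule held 1185 GR peaks after R5020, 394 GR and 630 PR peaks of untreated A1-2 cells, and 219 PR peaks of untreated MTVL cells. Positions are in the hg19 build, counted from 1.

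How much of each list the shared sites held depended on the list's length, and the shortest list was the most fully included. Shared sites held 11690 GR Dex peaks (63.5% of that list, 62.8 to 64.2), 11793 PR peaks of A1-2 cells (41.7%, 41.2 to 42.3) and 11661 PR peaks of MTVL cells (27.1%, 26.7 to 27.5). With lists of equal length, cut by score, there were 8007 shared sites, and the shares were 44.3%, 44.3% and 43.7% in that order. The class nearest in size to the 11528 shared sites was that of 11505 regions with PR in both lines and no GR Dex peak, called PR sites without GR below. Shared sites covered 11.2 Mb, compared with 9.36 Mb for PR sites without GR. Near neighbours of the shared sites were 1880 regions with GR and PR in A1-2 cells but no MTVL peak, and 1090 with GR in A1-2 cells and PR in MTVL cells but no A1-2 PR peak.

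**Figure D1:**
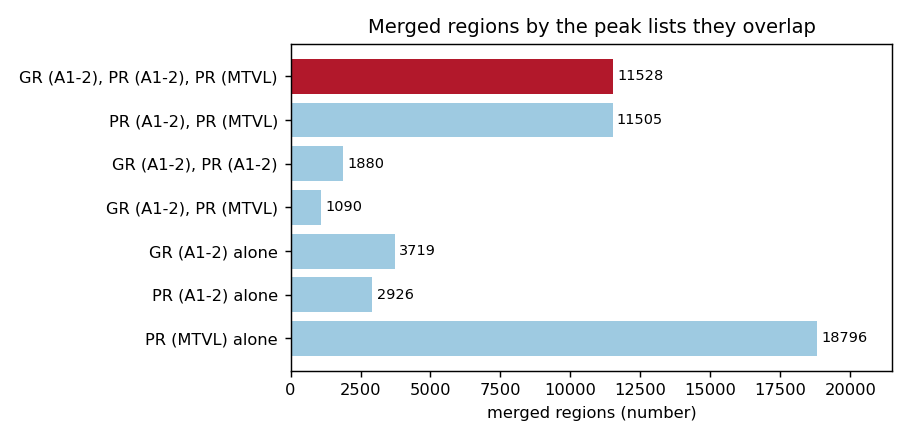
Number of merged regions (horizontal axis) in each of the 7 classes, which are defined by the peak lists a region overlaps. The 11528 shared sites, drawn in red at the top, and the 11505 PR sites of both lines without a GR Dex peak are nearly equal in number, and PR of MTVL cells alone makes the largest class with 18796 regions.

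A typical shared site was a single compact peak seen in each library. Of the 11528 sites, 11136 (96.6%, 96.3 to 96.9) had exactly 1 peak of each list. At 154 sites there were 2 or more GR Dex peaks, at 255 there were 2 or more PR peaks of A1-2 cells, and at 127 there were 2 or more PR peaks of MTVL cells. The median site was 831 bp wide, with quartiles of 715 and 1081 bp and a range of 317 to 18308 bp. The stretch covered by all 3 lists had a median length of 611 bp, so most of a site was common ground.

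The called peaks of the 3 lists had nearly the same midpoints at most shared sites. The midpoints of the GR Dex peak and the PR peak of A1-2 cells lay a median of 38.5 bp apart, those of the PR peaks of A1-2 and MTVL cells 37 bp apart, and those of the GR Dex peak and the PR peak of MTVL cells 42 bp apart. In 95% of shared sites the first of these distances was at most 234 bp, the second 257 bp and the third 294 bp. The offset between GR and PR within A1-2 cells was thus close to the offset between PR in one line and PR in the other. Overlap was part of how the sites were chosen, so these distances describe the sites and test nothing. The midpoints are those of called peaks, and they do not place a receptor on particular bases.

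Widths differed a little between the libraries. At sites with 1 peak of each list, GR Dex peaks had a median width of 676.5 bp, PR peaks of A1-2 cells 706 bp and PR peaks of MTVL cells 766 bp. The widest of the peaks was that of PR in MTVL cells at 57.7% of these sites, that of PR in A1-2 cells at 21.9% and that of GR at 20.4%. The GR peak lay wholly inside the A1-2 PR peak at 34.7% of the sites, and the reverse held at 21.7%. The A1-2 PR peak lay wholly inside the MTVL PR peak at 46.4%, and the reverse held at 17.0%.

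The strength of a peak is given here by its deposited score, taken as the log10 of the p that MACS gave the peak, times -10. It starts at 100 and reaches a ceiling near 3100, and it ranks peaks within a list but is not a level that can be compared between libraries. Shared sites had a median GR Dex score of 249, with quartiles of 153 and 467, compared with 145 for the other peaks of that list. The median PR score in A1-2 cells was 546 at shared sites, with quartiles of 270 and 1222, and 172 at the list's other peaks. The median PR score in MTVL cells was 914 at shared sites, with quartiles of 360 and 2168, and 241 at the list's other peaks. The scores come from the lists that chose the sites, so these differences are a description.

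The chance of being a shared site climbed with the score in every list, at different rates. Among regions with a GR Dex peak, 38% of the lowest decile of the GR score and 94.3% of the highest were shared sites. Among regions with a PR peak of A1-2 cells the share was 10.1% in the lowest decile of that score and 94.9% in the highest. Among regions with a PR peak of MTVL cells it was 7.48% in the lowest decile and 75.2% in the highest. In the highest decile, shared sites were thus 1718 of 1822 regions by GR score, 2642 of 2784 by A1-2 PR score and 3227 of 4292 by MTVL PR score.

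**Figure D2:**
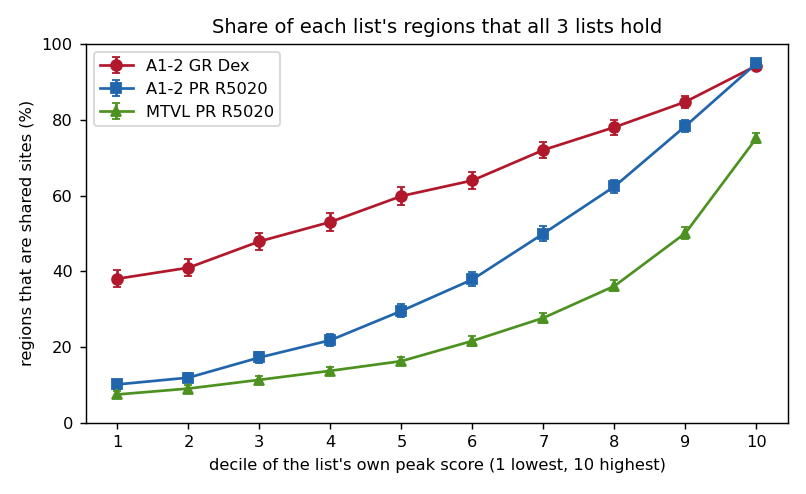
Percentage of regions that are shared sites (vertical axis) in each decile of the score of the list's own peaks (horizontal axis), for regions with a GR Dex peak (circles), a PR peak of A1-2 cells (squares) or a PR peak of MTVL cells (triangles), with exact 95% intervals. All lines climb from the lowest to the highest decile, the GR line from 38% and the MTVL line only to 75.2%.

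Within the shared sites the order of strength was most alike between the PR libraries of the cell lines. Over the 11528 sites, Spearman's rho was 0.75 between PR in A1-2 and PR in MTVL cells, 0.57 between GR and PR in A1-2 cells, and 0.33 between GR in A1-2 and PR in MTVL cells. With sites at the ceiling of either list left out, the values were 0.66 over 9722 sites, 0.50 over 10859 sites and 0.20 over 9786 sites. The pair that shared a receptor but not a cell line was therefore ranked more alike than the pair that shared a cell line but not a receptor. The PR pair also shared hormone and antibody, while the A1-2 pair shared neither, so receptor, hormone and antibody cannot be told apart here. With lists of equal length, cut by score, rho for these pairs was closer, at 0.68 and 0.59. All points of a list share that library and its depth, and rho is given with no test. Where there was no GR Dex peak, rho between the PR libraries was 0.50 over the 11505 sites, and at the 1880 sites of GR and PR in A1-2 cells alone rho between the receptors was 0.38. At the 1090 sites of GR in A1-2 cells and PR in MTVL cells without an A1-2 PR peak it was 0.005. Scores in these classes lay in a narrower range. The A1-2 PR score had quartiles of 136 and 317 at the 11505 sites, against 270 and 1222 at shared sites. The part of this range in the lower rho was not tested.

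**Figure D3:**
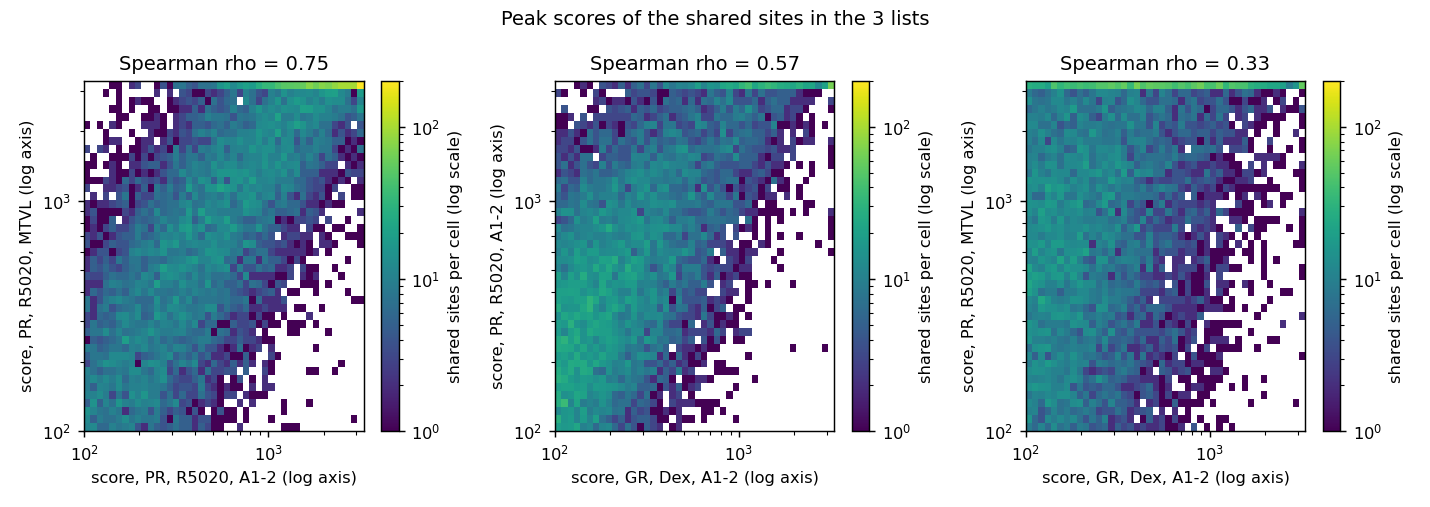
Scores of the 11528 shared sites in pairs of lists, on log axes, with the number of sites in each cell as colour on a log scale. Points follow the diagonal most closely for PR in A1-2 against PR in MTVL cells (rho 0.75) and least for GR in A1-2 against PR in MTVL cells (rho 0.33), and the bright edges at the top are sites at the score ceiling near 3100.

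Every score reached 200 at 5987 sites, 500 at 2134 sites and 1000 at 826 sites. At the ceiling, 79 shared sites had a GR Dex score of at least 3100 (0.685%, against 0.445% of all regions with a GR Dex peak). In A1-2 cells 655 shared sites had such a PR score (5.68%, against 2.37% of all regions of that list), and in MTVL cells 1719 did (14.9%, against 4.71%). Nearly all GR and A1-2 PR peaks at the ceiling were therefore at shared sites, namely 79 of 81 and 655 of 659, compared with 1719 of 2020 for MTVL PR. These counts follow from the rule and the scores it drew on.

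At 56 shared sites all 3 scores reached 3100, with 7 of them on chromosome 3 and no more than 4 on any other chromosome. The first of them in genome order lay on chromosome 1 from 11629377 to 11630280 and scored 3178 for GR, 3100 for PR in A1-2 cells and 3100 for PR in MTVL cells. The next ones in genome order, at 146580961 to 146582189 and at 195862389 to 195864282 of chromosome 1, had 3100 in every list, and the second of them also had a GR R5020 peak. Among these the order of strength cannot be read. The highest GR Dex score among shared sites was 3203, on chromosome 14 from 95737714 to 95739063, where both PR scores were 3100 and a GR peak after R5020 was also called.

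The highest MTVL scores came with a wide range of GR scores. The site on chromosome 1 from 219605885 to 219607223 had a score of 156 for GR and 1479 for PR in A1-2 cells, and 3233 for PR in MTVL cells. At 244825770 to 244826603 of chromosome 1 the scores were 242 for GR, 997 for PR in A1-2 cells and 3233 for PR in MTVL cells. The site at 17388266 to 17389137 of chromosome 6, also with 3233 for PR in MTVL cells, had 960 for GR and 1856 for PR in A1-2 cells. Ranked among shared sites, these were at 26.0%, 48.8% and 90.4% by GR score, and at 80.0%, 69.2% and 85.3% by PR score in A1-2 cells.

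Sites ranked far apart by the receptors were few. Of the 1153 sites in the top 10% by GR score, 639 (55.4%) were also in the top 10% by PR score in A1-2 cells and 3 were among the lowest 10%. Of the 1153 in the top 10% by PR score in A1-2 cells, 9 were among the lowest 10% by GR score. The site with the largest excess of GR over A1-2 PR rank lay on chromosome 9 from 125135966 to 125136792. It had scores of 965 for GR, 110 for PR in A1-2 cells and 147 for PR in MTVL cells. In the other direction, the site on chromosome 17 from 46025191 to 46026969 had 101 for GR, 2947 for PR in A1-2 cells and 3100 for PR in MTVL cells. PR was thus strong there in both lines, with a GR peak that barely passed the calling threshold.

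Between the cell lines, sites with very unlike PR ranks were also few. Of the 1153 sites in the top 10% by PR score in A1-2 cells, 894 (77.5%) were in the top 10% by PR score in MTVL cells, which with ties at the ceiling held 1719 sites, and 1 was among the lowest 10%. That site, on chromosome 6 from 158463007 to 158464632, had scores of 1166 for GR, 3030 for PR in A1-2 cells and 113 for PR in MTVL cells. Conversely, the site on chromosome 11 from 114179281 to 114180174 had 283 for GR, 138 for PR in A1-2 cells and 3100 for PR in MTVL cells. Between GR and MTVL PR, the site on chromosome 8 from 10480853 to 10481891 ranked farthest apart toward GR, with scores of 2856 for GR, 234 for PR in A1-2 cells and 128 for PR in MTVL cells. Within A1-2 cells that site was strong for GR and weak for PR.

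Few sites lay at the edge of the definition. At 14 of the shared sites (0.121%) no base lay under peaks of all 3 lists, since peaks were joined through a chain. One of these, at 168077893 to 168079184 of chromosome 5, scored 391 for GR, 270 for A1-2 PR and 780 for MTVL PR. The smallest common stretch above 0 was 13 bp, at 32603193 to 32604196 of chromosome 12, where GR scored 112, A1-2 PR 174 and MTVL PR 193. Just outside the definition, a region with A1-2 PR and MTVL PR peaks on chromosome 16 from 27267583 to 27268398 (scores 402 and 999) lay 3 bp from a GR Dex peak of score 425. Of the PR sites without GR, 325 (2.82%) had a GR Dex peak less than 500 bp away. The same distance to the missing list was met by 92 of the 1880 sites of GR and PR in A1-2 cells alone and by 31 of the 1090 sites of GR and MTVL PR.

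Many shared sites had a score close to the calling threshold of a list. The lowest decile of the GR Dex score, 100.02 to 110.53, held 691 of them. The lowest GR score among shared sites was 100.04, on chromosome 1 from 13992010 to 13992934, where PR scored 884 in A1-2 and 2275 in MTVL cells. On chromosome 5 from 164754464 to 164755091 the lowest score was that of PR in A1-2 cells, 100.02, beside 119 for GR and 358 for PR in MTVL cells. A slightly stricter threshold in 1 list would have left such sites out.

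Which shared sites were occupied in conditions outside the rule was read from the 4 remaining peak lists. These lists had no part in choosing the sites. They come from the same cells and antibodies as the 3 that did, so they are separate calls and not separate systems. Of the 11528 shared sites, 380 (3.30%, 2.98 to 3.64) overlapped a peak of any of the 4, against 2.28% of all merged regions. In 328 of them it was 1 list, in 39 it was 2, and in 13 it was 3. A peak of any of the untreated libraries was at 212 shared sites (1.84%, against 1.4% of all merged regions). No shared site overlapped all 4 lists, and 0 of 11528 allows a share of up to 0.0260%. Limits for a count of 0 are here 3 counts divided by the number of sites.

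GR peaks after R5020, the progestin, were called at 200 shared sites (1.73%, 1.5 to 1.99), against 1.34% of all merged regions. They were called at 30 PR sites without GR (0.261%, 0.176 to 0.372), a difference of 1.47 percentage points (1.23 to 1.74). PR sites without GR were chosen for lacking a GR Dex peak, called in the same cells with the same antibodies. A low share of other GR calls there may thus follow from the rule. Shared sites were also the stronger PR sites, and within deciles of the A1-2 PR score the difference was 0.125 points (-0.0370 to 0.287), an interval that includes 0. Within deciles of the MTVL PR score it was 0.819 points (0.625 to 1.01). At the sites of GR and PR in A1-2 cells without an MTVL peak the share was far higher, 266 of 1880 (14.1%), and the difference, shared sites minus that class, was -12.4 points (-14.1 to -10.9). That class also holds the peak-dense stretch of chromosome 16 between 34 and 36 Mb, and without it and chromosome 3 beyond 150 Mb the shares were 1.68% at shared sites and 9.04% in that class. At the 1090 sites of GR and MTVL PR alone there was no GR R5020 peak, which allows a share of up to 0.275%.

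The shared sites with a GR R5020 peak mostly had strong PR. Their median GR Dex score was 1057 (834 to 1439), compared with 245 for the shared sites without such a peak. Their median PR score was 3100, the ceiling, in each line, compared with 535 in A1-2 cells and 897 in MTVL cells for the other shared sites. By decile of the A1-2 PR score, 162 of 2642 shared sites in the highest decile had a GR R5020 peak (6.13%, 5.25 to 7.12), and 8 of 4968 in deciles 1 to 7 did (0.161%, 0.0695 to 0.317). PR sites without GR had 2 of 123 in the highest decile (1.63%, 0.198 to 5.75) and 23 of 9900 in deciles 1 to 7 (0.232%). Sites of GR and PR in A1-2 cells without an MTVL peak climbed from 11 of 278 in the lowest decile (3.96%) to 10 of 19 in the highest (52.6%). A climb with the A1-2 PR score was thus not particular to the shared sites. By decile of the MTVL PR score, 163 of 3227 shared sites in the highest decile had one (5.05%, 4.32 to 5.86), but the share did not climb steadily, with 5 of 321 in the lowest decile (1.56%, 0.508 to 3.60) and 8 of 2150 in decile 9 (0.372%, 0.161 to 0.732). In the highest decile of that score, 5 of 963 PR sites without GR had one (0.519%). The GR R5020 peaks themselves scored lower at shared sites, since the 205 that lay in shared sites had a median score of 158 (142 to 172), compared with 285 (258 to 320) for the 980 elsewhere. Those elsewhere include 566 (47.8% of the list) that overlapped no merged region, so they are a mixed group.

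**Figure D4:**
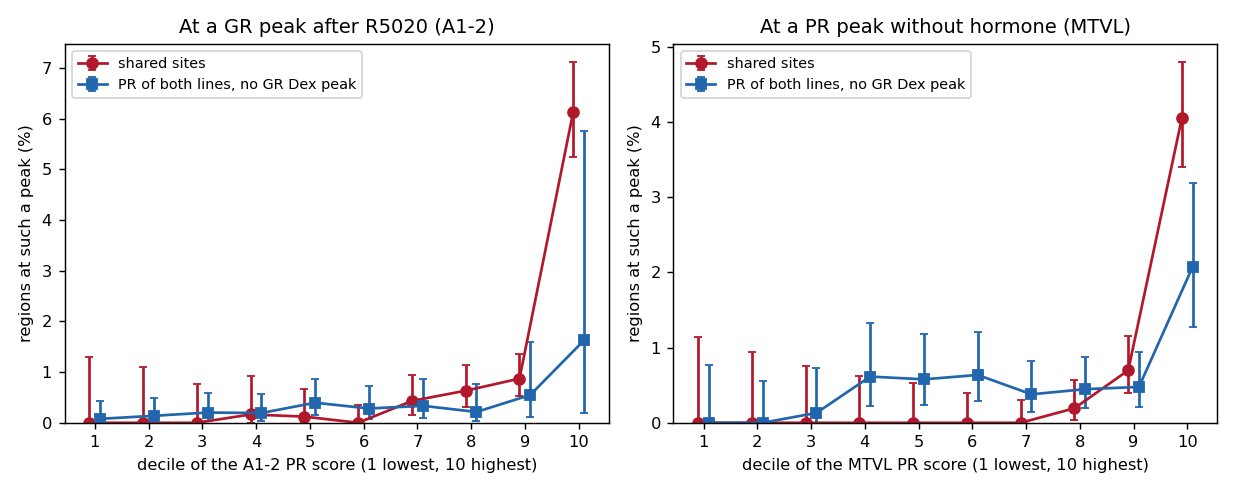
Percentage of regions (vertical axes, exact 95% intervals) that overlap a GR peak of A1-2 cells after R5020, by decile of the A1-2 PR score (left), or a PR peak of untreated MTVL cells, by decile of the MTVL PR score (right). Circles are shared sites and squares PR sites of both lines without a GR Dex peak, and the shared sites reach 6.13% and 4.06% in the highest decile.

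PR peaks of MTVL cells without hormone fell mostly on shared sites, unlike those of the other lists outside the rule. Shared sites held 17.3% of the GR R5020 peaks, and 11.4% of the GR and 11.6% of the PR peaks of untreated A1-2 cells. Sites of GR and PR in A1-2 cells without an MTVL peak held 56.6% and 41.1% of these untreated GR and PR peaks. Untreated MTVL PR peaks had a median width of 1242 bp, GR R5020 peaks 978 bp, and untreated A1-2 GR and PR peaks 226.5 and 247.5 bp. Wider peaks meet an overlap of 1 bp more easily, and the part of width in these shares was not tested. Of the 219 untreated MTVL PR peaks, 145 (66.2%, 59.5 to 72.4) lay in shared sites, 61 (27.9%) in PR sites without GR, and 22 at PR of MTVL cells alone. Counted over regions, 149 shared sites (1.29%, 1.09 to 1.52) overlapped one, against 0.465% of all merged regions and 65 of the 11505 PR sites without GR (0.565%, 0.436 to 0.720). The difference was 0.728 points (0.482 to 0.981), but within deciles of the MTVL PR score it was 0.0629 points (-0.142 to 0.268), and within deciles of the A1-2 PR score it turned to -0.412 points (-0.662 to -0.163). The shared sites concerned had a median MTVL PR score after R5020 of 3100, compared with 896 for the other shared sites, and 104 of the 149 were among the 1719 shared sites at the ceiling of that list. In deciles 1 to 7 of that score, 0 of 4601 shared sites had an untreated MTVL peak, which allows up to 0.0652%, while 29 of 7076 PR sites without GR did (0.410%, 0.275 to 0.588). The shared sites with an untreated MTVL peak were thus all in the upper 3 deciles, while the PR sites without GR that had one included weaker sites.

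Of the peaks of untreated A1-2 cells, 45 of 394 GR peaks (11.4%) and 73 of 630 PR peaks (11.6%) lay in shared sites. The receptors differed in the comparison with PR sites without GR. PR peaks of untreated A1-2 cells overlapped 59 shared sites (0.512%, 0.390 to 0.660), against 0.793% of all merged regions and 100 PR sites without GR (0.869%, 0.708 to 1.06). At the sites of GR and PR in A1-2 cells without an MTVL peak the share was far higher, 165 of 1880 (8.78%). Without chromosome 16 from 34 to 36 Mb and chromosome 3 beyond 150 Mb it was 6.45% there. The difference, shared sites minus PR sites without GR, was -0.357 points (-0.577 to -0.144) and -0.616 points (-0.854 to -0.378) within deciles of the A1-2 PR score, but 0.0555 points with lists cut to equal length by score. GR peaks of untreated A1-2 cells overlapped 37 shared sites (0.321%, 0.226 to 0.442), against 0.498% of all merged regions and 8 PR sites without GR (0.0695%). At the sites of GR and PR in A1-2 cells without an MTVL peak they overlapped 163 of 1880 (8.67%), or 5.73% without those stretches. Here the difference, shared sites minus PR sites without GR, was 0.251 points (0.140 to 0.377), and 0.207 points (0.0869 to 0.326) within deciles of the A1-2 PR score. PR sites without GR lack a GR Dex peak by the rule, so a low share of untreated GR peaks there may follow from that choice. These 37 sites had a median GR Dex score of 430 (352 to 652) and a median MTVL PR score of 374 (188 to 635), whereas the shared sites without such a peak had 249 and 917. They were thus among the stronger shared sites by GR and among the weaker by PR in MTVL cells.

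Some shared sites had peaks of several of the lists outside the rule. Of the shared sites, 127 had an untreated MTVL PR peak and no other of the 4 lists, 21 an untreated A1-2 PR peak alone, and 8 both of these. These 8 were among the 59 shared sites with an untreated A1-2 PR peak and the 149 with an untreated MTVL PR peak. For such combinations no share over all merged regions is given, so the counts are not read as many or few. All 13 sites with peaks of 3 lists had GR after R5020 and both receptors of untreated A1-2 cells. The strongest of the 13 by the lowest of its scores lay at 32318752 to 32320984 of chromosome 20, with 2942 for GR and 3100 for PR in each line. Another, on chromosome 2 from 99524304 to 99526822, had 1698 for GR, 3100 for PR in A1-2 cells and 643 for PR in MTVL cells.

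Shared sites stood closer to one another than PR sites without GR did. Another shared site lay within 10 kb of 3686 shared sites (32.0%, 31.1 to 32.8), and another PR site without GR lay within 10 kb of 2699 of the 11505 such sites (23.5%, 22.7 to 24.2). Of all merged regions, 22.1% had a shared site other than themselves within 10 kb. A region of any class lay within 10 kb of 65.0% of the shared sites and of 57.0% of the PR sites without GR, against 55.8% of all merged regions. The median gap between neighbouring shared sites was 75282 bp, with quartiles of 17615 and 245671 bp. Of the stretches of 1 Mb that held any merged region, 2296 of 2799 held a shared site, and 305 of them with 10 or more held 36.1% of all shared sites.

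The stretch of 1 Mb with the most shared sites was chromosome 16 from 85 to 86 Mb, with 37 shared sites among 90 regions and 12 PR sites without GR. Next were chromosome 20 from 49 to 50 Mb with 35 shared sites, chromosome 10 from 79 to 80 Mb with 34, chromosome 14 from 95 to 96 Mb with 31 and chromosome 8 from 134 to 135 Mb with 29. These stretches held 8 to 15 PR sites without GR each, and since they were chosen for their number of shared sites, that difference follows from the choice.

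The same stretch of chromosome 16 held the widest shared sites. Of the 12 shared sites of at least 5 kb, 8 lay there, and the 5 widest of all lay between 85487928 and 85653816. The widest, from 85598986 to 85617293, was 18308 bp long and joined 3 GR Dex peaks, 4 PR peaks of A1-2 cells and 3 PR peaks of MTVL cells. Its highest scores were 2768 for GR, 3100 for PR in A1-2 cells and 2537 for PR in MTVL cells, and all 3 lists covered 14426 bp of it together. The site from 85502758 to 85510944 was 8187 bp long with 1 peak of each list, scoring 1583 for GR and 3100 for PR in each line. A narrower site nearby, from 85627848 to 85629437, had 3100 for GR, 3100 for PR in A1-2 cells and 2899 for PR in MTVL cells, and a GR R5020 peak. It was picked out after its values were seen.

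Between 85.3 and 85.9 Mb, bounds chosen after the values were seen, 59 regions held 25 shared sites, which spanned 478 kb and covered 115 kb of it. The window held 40 GR Dex peaks, 52 PR peaks of A1-2 cells and 44 PR peaks of MTVL cells after R5020. It held 1 GR peak after R5020, 3 GR and 3 PR peaks of untreated A1-2 cells, and 0 PR peaks of untreated MTVL cells. No input peak of A1-2 cells was called in it. Regions of other classes in the window were wide too. The widest was 12062 bp for GR and PR in A1-2 cells alone, 8962 bp for PR of MTVL cells alone and 6280 bp for PR sites without GR. Over all chromosomes the median widths of these classes were 719, 612 and 728 bp. Great width there was thus not particular to the shared sites. How many of all merged regions were at least 5 kb wide was not counted. The widest shared site elsewhere was 6273 bp long, on chromosome 3 from 193583248 to 193589520. At 35692768 to 35698147 of chromosome 6, a site of 5380 bp with 3 GR Dex peaks had a score of 3100 in all 3 lists, and it too was picked out after its values were seen.

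The chromosomes held unequal parts of the shared sites. Chromosome 20 held 434 of them (3.76%) and 1117 of the other merged regions (2.80%), a ratio of shares of 1.35 (1.21 to 1.5). The ratio was 1.23 (1.12 to 1.35) for chromosome 14, 1.21 (1.11 to 1.31) for chromosome 11, 1.16 (1.07 to 1.27) for chromosome 8 and 1.14 (1.04 to 1.25) for chromosome 9. Ratios with intervals below 1 were 0.677 (0.549 to 0.834) for chromosome 21, 0.722 (0.651 to 0.8) for chromosome 4, 0.784 for chromosome 13, 0.789 for chromosome 12, 0.841 for chromosome 18, 0.897 for chromosome 6 and 0.903 for chromosome 2. With lists of equal length, cut by score, the ratio of chromosome 20 was 0.929. Chromosome 16 had a ratio of 1.07 (0.967 to 1.18), 1.30 without its stretch from 34 to 36 Mb and chromosome 3 beyond 150 Mb, but 0.916 with midpoints within 200 bp and 0.813 with lists of equal length, so its direction turned with the setting. The ratio was recomputed under other settings for chromosomes 16 and 20 alone, and with lists of equal length both fell below 1. The ratios of the other chromosomes were not checked in this way. The intervals of these ratios were not adjusted for the number of chromosomes.

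Set against the PR sites without GR alone, the shared sites were relatively more frequent on chromosomes 16 (1.38, 1.21 to 1.58), 20 (1.38, 1.2 to 1.59), 14 (1.28, 1.13 to 1.45), 11 (1.28, 1.15 to 1.42) and 8 (1.17, 1.05 to 1.30). They were less frequent on chromosomes 19 (0.722, 0.611 to 0.853), 4 (0.727, 0.642 to 0.822), 6 (0.859, 0.773 to 0.955) and 2 (0.873, 0.794 to 0.960). Chromosome 19 was thus low against these sites but not against all other regions, where its ratio was 1.04 (0.896 to 1.2). The ratios against PR sites without GR were not recomputed under other settings.

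The ranks of the scores also differed by chromosome, and most of all in the MTVL list. With each list ranked over all 11528 shared sites, the median rank in the MTVL list was at 41.7% on chromosome 20, 41.9% on chromosome 19, 42.3% on chromosome 14 and 43.1% on chromosome 16. In the A1-2 PR list the same sites had median ranks of 54.1%, 52.5%, 51.8% and 52.6% in that order, and in the GR list 53.3%, 50.9%, 52.4% and 54.4%. On these chromosomes shared sites were therefore ranked lower by MTVL PR than by either receptor in A1-2 cells. On chromosome 17 the ranks were 47.3% for GR, 55.7% for A1-2 PR and 58.0% for MTVL PR, so that GR was the lower one. Copy number was not analysed here, and its part in these ranks was not tested.

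**Figure D5:**
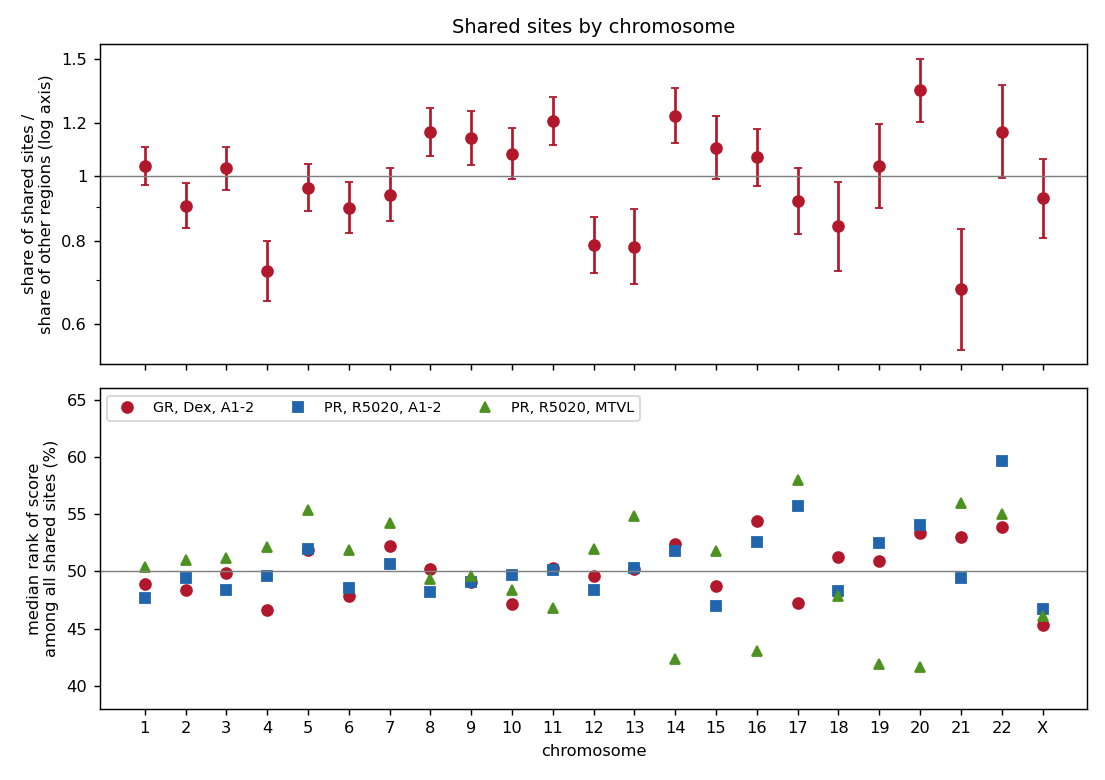
Top, the share of shared sites on each chromosome divided by the share of the other merged regions there, on a log axis with 95% intervals, where the line marks equal shares. Bottom, the median rank of the shared sites of a chromosome by GR score (circles), A1-2 PR score (squares) and MTVL PR score (triangles) among all shared sites, where MTVL ranks are lowest on chromosomes 20 (41.7%), 19, 14 and 16.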

How the data were processed

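Tools named in the submitters' processing notes are MACS 1.4.2, Bowtie 1.1.1 and bedtools, with hg19 as the build, while their settings, the control used and the depth were not given in the sources used here. A deposited file, 1 for each of 8 libraries, lists the called peaks with a score per peak that the authors deposited and that is taken here as MACS's -10 times log10 of p. Samples were grouped by their titles. The score was used to describe and rank peaks within a list. A region with several peaks of a list was given the highest score and that peak's midpoint.

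Peaks counted as the same site at an overlap of 1 bp, and bedtools 2.31.1 gave the same 51444 regions and 11528 shared sites. Shares have exact (Clopper-Pearson) intervals, except that a count of 0 is given with a limit of 3 counts, differences of shares Newcombe intervals, ratios of shares intervals on the log scale, medians intervals from order statistics, and differences within deciles Mantel-Haenszel weights. Merging and the weighted difference were tested on simulated data. Sites named were, unless stated, drawn from the first 5 of sets fixed by rule, not always in order of place (highest scores, rank differences, smallest overlap, most lists, widest, densest stretches of 1 Mb). The sites and these rules were chosen with earlier results of these data known. Genes, motifs and receptor proteins were planned for a genome of the hg19 build and a protein table, and were not analysed here. Python 3.11.15 was used, with matplotlib 3.10.9, scipy 1.17.1 and numpy 2.4.6.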

Additional observations from a re-analysis of the deposited data

How the results depend on the processing

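No paired analysis was possible because each group had 1 library. Over 22 results and 133 alternatives, 73 values lay inside the 95% interval of the reported one (for numbers of sites, differed by under 1.5 times), 55 lay outside it and 5 changed direction. The alternatives within deciles of the MTVL PR score, and those on untreated MTVL peaks, were chosen after seeing the data, and motif alternatives were not run. The cause of these changes was not tested. Keeping peaks that scored 200 or more gave 6019 shared sites (18.6% of regions), with 0.864% of them at a GR R5020 peak, 0.0997% at an untreated A1-2 GR peak, 0.166% at an untreated A1-2 PR peak and 0.648% at an untreated MTVL PR peak, a GR R5020 difference from PR sites without GR of 0.655 points, and chromosome ratios of 1.26 for chromosome 16 and 1.53 for chromosome 20. Midpoints within 200 bp gave shared sites as 19.4% of regions, with 1.33%, 0.133%, 0.247% and 0.942% at the same lists in that order, a GR R5020 difference of 1.18 points and a chromosome 16 ratio of 0.916. Lists of equal length gave 26.3% of regions, with 2.27%, 0.225% and 1.84% at GR R5020, untreated A1-2 GR and untreated MTVL PR peaks, a GR R5020 difference of 1.95 points, an untreated A1-2 PR difference of 0.0555 points, and ratios of 0.813 and 0.929 for chromosomes 16 and 20. Without the dense stretches of chromosomes 16 and 3 the chromosome 16 ratio was 1.30. Within deciles of the A1-2 PR score the differences were 0.125 points for GR R5020, -0.616 for untreated A1-2 PR and -0.412 for untreated MTVL PR, and within deciles of the MTVL PR score 0.819 for GR R5020 and 0.0629 for untreated MTVL PR. The unknown depth limits every count of sites, since weak peaks can be missed in a shallow library.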
